A study of Mus musculus with 4 samples.

Results

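The immediate early gene set described here holds Egr1, Egr2, Egr3, Nr4a1, Fos, Fosb, Jun, Junb, Cd69 and Dusp1, 10 symbols in all. Every probe set that the platform annotation assigns to one of these symbols alone was taken, whatever its signal. This gave 11 probe sets for 9 of the genes, out of 22690 probe sets and 12393 named genes on the array. Egr2 and Jun had more than 1 probe set, called a and b below in the order of their identifiers. Cd69, the early activation receptor, was not analysed here.

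Immediate early genes are the genes that cells transcribe first after a signal, without making new protein beforehand. In T cells, the antigen receptor switches them on through calcium and MAP kinase signals, and through the serum response factor and CREB, which bind the CArG box and the cAMP response element (CRE). They encode transcription factors of the EGR, NR4A, FOS and JUN families and short feedback loops such as the phosphatase DUSP1, and they are also known to come up when cells are handled or warmed. Their RNAs are short-lived, so a level reflects recent signalling more than past exposure.

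The samples are splenic CD4 and CD8 T cells of untreated C57Bl/6 mice, obtained by FACS after staining of CD44 and of both coreceptors. There were 4 groups: Gfi1 knockout CD4 cells, wildtype CD4 cells, Gfi1 knockout CD8 cells and wildtype CD8 cells, each described as CD44 low. GFI1 is a zinc finger protein that represses transcription. The labels state neither the form of the knockout allele nor the age of the mice. Each group is 1 Affymetrix MOE430A_2.0 array of RNA pooled from 2 mice, so the spread from mouse to mouse is unknown and no p-value is given within a subset.

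The subset labels matched Cd4 and Cd8a, while the CD44 labels of the wildtype samples did not. Cd4 read 8.4 and 18.9 on the knockout and wildtype CD8 arrays, against 5470 and 5901 on the CD4 arrays. Cd8a read 16639 and 15920 on the knockout and wildtype CD8 arrays, against 89.6 and 67.2 on the CD4 arrays. Cd8b1 read 25715 and 26222 on the CD8 arrays, and was above background on the CD4 arrays too, at 970.5 in knockout and 312.1 in wildtype cells, 3.11-fold apart. Cd44 was 196 in knockout CD4 cells against 8136 in wildtype CD4 cells, and 252 in knockout CD8 cells against 5740 in wildtype CD8 cells. The sample titles also end in N for the knockout and in M for the wildtype, a letter the labels do not explain. Genotype label and Cd44 level therefore cannot be told apart in any comparison between the labels. Gfi1 itself was not lower in the cells labelled knockout, at 2891 against 2272 in CD4 cells and 2447 against 1158 in CD8 cells. Its probe set checks the genotype only if it lies in the deleted part of the gene, which is not known here. Of the 13 dendritic and myeloid markers with a probe set, the summed signal was 863 in knockout CD4, 872 in wildtype CD4, 631 in knockout CD8 and 2960 in wildtype CD8 cells, with Itgax highest at 1002.5 on the wildtype CD8 array. The 11 B cell and MHC class II markers summed to 21018, 19347, 15038 and 59236 in the same order, while Ms4a1, Cd79a and Pax5 lay below 93.9 on every array. Of that list, Cd22 read 154, 1124, 76.3 and 614.6 in this order and was called lower on the knockout label (adjusted p = 0.0133 by limma). Another Cd22 probe set read 17, 216.3, 21.1 and 157.5 and was not called (adjusted p = 0.168 by limma). Cd79b read 57.1, 305.1, 737.5 and 759.1, and Ighm was between 10871 and 16664. The 5 natural killer markers summed to 349.5, 2269, 174.6 and 2866, with Ncr1 below 93.9 throughout. Klrk1 read 65.8, 1742, 113 and 1511 and was called lower on the knockout label (adjusted p = 0.00343 by limma). Over all settings run, the adjusted p by limma reached 0.851 for Klrk1 and for the called Cd22 probe set. Tyrobp read 97.5, 238.5, 10.3 and 882.9, and Klra8 was above 93.9 on the wildtype CD8 array alone, at 220.6. The 5 red cell and platelet markers summed to 257.3, 438, 347.1 and 357.4. The MHC class II presentation genes Cd74, H2-Aa, H2-Ab1 and H2-Eb1 read 16735, 12284, 7185 and 10415.5 in wildtype CD8 cells. They read 592.6, 379.5, 248.8 and 222.3 in knockout CD8 cells, and between 419.5 and 1576 on the CD4 arrays. The part of these cells in the results below was not tested, and in sorted bulk cells fewer cells of a type and less RNA per cell cannot be told apart.

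Promoter sequences are shown for Egr2 and Dusp1, lower in the cells labelled knockout, and for Junb, higher in them, because promoters of this class are known for such response elements. Sequences are from RefSeq on GRCm38.p6. Windows of 250 bases before to 50 after annotated starts were searched for 7 of the members (Egr2, Nr4a1, Fos, Fosb, Jun, Junb and Dusp1). Capitals mark the CArG box and the CRE, TGACGTCA, or its half-site TGACG, on either strand. The first Egr2 sequence is the stretch before 1 of its 5 annotated starts, and the second, of 30 bases, lies before another start and holds a CArG box beside a half-site.
Egr2 chr10:67537316-67537565, plus strand: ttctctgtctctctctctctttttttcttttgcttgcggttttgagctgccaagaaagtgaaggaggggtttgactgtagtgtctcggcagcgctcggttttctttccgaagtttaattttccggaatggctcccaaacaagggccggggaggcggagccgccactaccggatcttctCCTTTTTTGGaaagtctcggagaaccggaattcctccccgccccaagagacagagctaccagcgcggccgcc
Egr2 chr10:67537792-67537821, plus strand: tcagtCCATATATGGgcagcgaCGTCAcgg
Dusp1 chr17:26508473-26508722, minus strand: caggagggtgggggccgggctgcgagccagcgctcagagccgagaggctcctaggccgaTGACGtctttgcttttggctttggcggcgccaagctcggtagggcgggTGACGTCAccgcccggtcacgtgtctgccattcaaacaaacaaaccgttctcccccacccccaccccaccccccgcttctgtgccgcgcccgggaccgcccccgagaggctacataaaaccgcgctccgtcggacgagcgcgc
Junb chr8:84978749-84978998, minus strand: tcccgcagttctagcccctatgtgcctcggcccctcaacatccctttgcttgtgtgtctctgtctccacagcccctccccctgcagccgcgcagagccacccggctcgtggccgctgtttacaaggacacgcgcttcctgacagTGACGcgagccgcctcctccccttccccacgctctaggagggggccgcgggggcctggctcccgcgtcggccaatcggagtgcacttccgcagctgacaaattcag

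Of the 7 genes, Egr2 alone held a CArG box in these windows, before 4 of its 5 starts, the last 3 of which lie so close that their windows share it. Dusp1 alone held a full CRE, whose letters contain a half-site on each strand, and it had 1 further half-site. A half-site was found for 6 genes, with 2 matches in each of those 3 Egr2 windows, 4 for Nr4a1, 2 for Fos and 1 each for Fosb and Junb, and none for Jun. No window of these genes held the AP-1 motif TGANTCA. Over all 32851 windows of the same length, 1.63% held a CArG box, 1.79% a CRE, 20.8% a half-site and 7.81% an AP-1 motif. These matches describe letters in a short window and say nothing of binding. Egr1 and Egr3 had no window in this search, so nothing is said of their promoters.

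**Figure D1:**
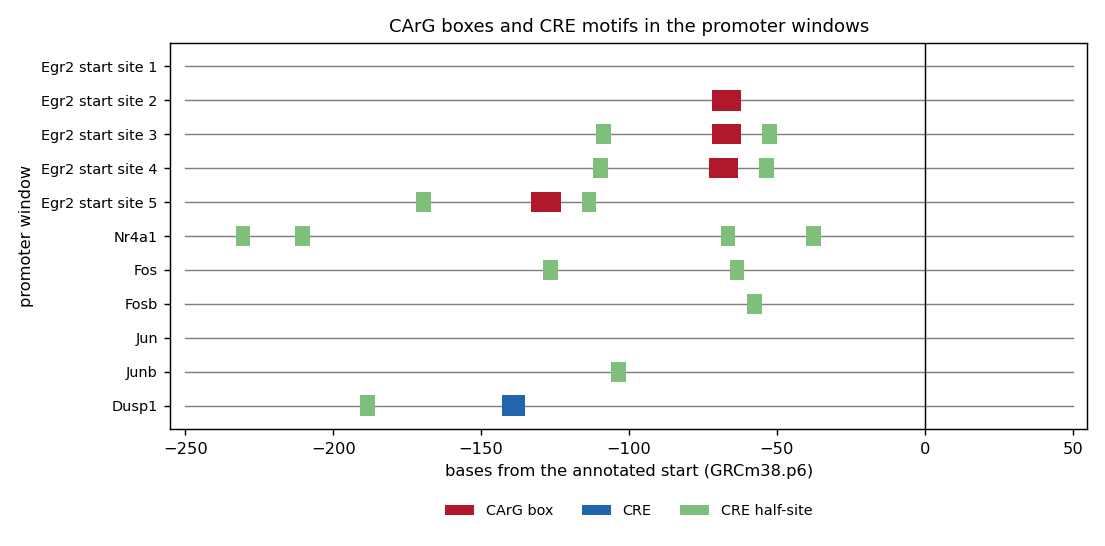
Position of CArG boxes (red), full CREs (blue) and CRE half-sites (green) in the 11 promoter windows of 7 immediate early genes, in bases from the annotated start at 0. Egr2 has CArG boxes before start sites 2 to 5, and Dusp1 has the full CRE, drawn without the half-sites inside it.

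Between the labelled genotypes, Egr2 was the member with the largest difference, and no other member was 2-fold apart. EGR2 is a zinc finger factor that the T cell receptor induces through NFAT and that is known for restraining T cell activation. Its probe set a read 328.4 in knockout CD4 cells against 1376 in wildtype CD4 cells, and 217.4 in knockout CD8 cells against 427.2 in wildtype CD8 cells. Its probe set b read 535.3 in knockout CD4 cells against 1774 in wildtype CD4 cells, and 432 in knockout CD8 cells against 505.1 in wildtype CD8 cells. Both probe sets were thus lower in the cells labelled knockout within each subset, and the wildtype CD4 array stood above the other 3 on both. The folds were 4.19 and 3.31 lower in knockout CD4 cells, and 1.97 and 1.17 lower in knockout CD8 cells, so the probe sets gave different sizes in CD8 cells.

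Signals below 93.9, the 40th percentile of all values, were set to that floor before taking log2. At 2-fold, these 2 Egr2 probe sets were the only ones of 11 past the threshold in CD4 cells, both lower in knockout cells, against 7.11% lower and 2.18% higher among all 14496 probe sets with signal over it on either array. In CD8 cells 0 of 11 were 2-fold apart in either direction, against 3.95% lower and 1.32% higher among 14365 probe sets. At 1.5-fold, 4 were lower in knockout CD4 cells (both Egr2 probe sets, Fosb and Dusp1) and 2 higher (Jun (a) and Junb), against 14.7% and 8.41%. In knockout CD8 cells 2 were 1.5-fold lower (Egr2 (a) and Dusp1) and 0 higher, against 10.3% and 4.89%, and the same 2 were 1.5-fold lower in both subsets, against 4.44%. Of the 10 above the floor on all arrays, 5 were lower at any size in both subsets and 3 higher, against 30% and 30.9% of 12162. With subset as a covariate, limma did not call either Egr2 probe set over all 15273 probe sets (log2 -1.52 ± 0.35 SE, adjusted p = 0.108, and -0.98 ± 0.37 SE, adjusted p = 0.309). With 1 residual degree of freedom, the error of that fit comes from how far CD4 and CD8 cells disagree and from a prior, so its p-values describe these arrays and not animals.

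The other EGR genes were nearer level or near the floor. EGR1 is a serum-responsive zinc finger activator and the family's most general responder. It read 4142.5 in knockout CD4 cells against 4689 in wildtype CD4 cells, and 2678 in knockout CD8 cells against 2800.5 in wildtype CD8 cells. These are log2 differences of -0.18 and -0.06, which turn to 0.14 and 0.15 when arrays are centred on their medians, so no direction can be given. Egr3, which works with Egr2 in restraining T cells, was near the floor everywhere. It read 97.4 in knockout CD4 and 131.2 in knockout CD8 cells, and 71.2 in wildtype CD4 and 67.9 in wildtype CD8 cells, which are below the floor. Only a lower bound of the fold can be given, at least 1.04-fold and 1.4-fold higher in the cells labelled knockout. NAB1 and NAB2 bind EGR factors and repress them, and Nab1 (log2 0.16 in CD4 and 0.13 in CD8 cells) and Nab2 (-0.09 and 0.16) were near level. Of 6 EGR and NR4A partners above the floor, 0 were 2-fold apart in CD4 cells and 1 (Nr4a2) was 2-fold lower in knockout CD8 cells. Over all 8629 genes with 1 probe set each, 7.3% were lower and 1.95% higher in CD4 cells and 4.02% lower in CD8 cells.

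Nr4a1 encodes the orphan nuclear receptor NUR77, a widely used reporter of antigen receptor signal strength. It read 3956 in knockout CD4 cells against 3364 in wildtype CD4 cells, and 2050 in knockout CD8 cells against 2220 in wildtype CD8 cells. The order of the labels was opposite in the 2 subsets and both differences were small, with log2 values of 0.23 and -0.11, the second turning to 0.10 with median centring. Its relative Nr4a2 lay below the floor on both knockout arrays and read 147.8 in wildtype CD4 and 256.7 in wildtype CD8 cells, at least 1.57-fold and 2.73-fold lower in the cells labelled knockout (adjusted p = 0.176 by limma). Another Nr4a2 probe set, also below the floor on both knockout arrays, gave floored log2 values of -0.93 in CD4 and -0.71 in CD8 cells. Nr4a3 was above the floor on the wildtype CD8 array alone.

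The FOS partners of AP-1 stood in opposite order between the labels. FOS and FOSB are leucine zipper proteins that form AP-1 by pairing with JUN proteins. Fos read 20059 in knockout CD4 cells against 16059 in wildtype CD4 cells, and 18348 in knockout CD8 cells against 15189 in wildtype CD8 cells. Both knockout arrays lay above both wildtype arrays, as for 3 of 11 members (17.9% of all probe sets), by 1.25-fold in CD4 and 1.21-fold in CD8 cells. Fosb read 390.6 in knockout CD4 cells against 672.8 in wildtype CD4 cells, and 362.5 in knockout CD8 cells against 460.1 in wildtype CD8 cells. It was 1.72-fold and 1.27-fold lower in the cells labelled knockout, and both knockout arrays lay below both wildtype arrays, as for 2 of 11 members (20.7% of all probe sets). Limma called neither gene (adjusted p = 0.487 for Fos and 0.474 for Fosb).

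The JUN partners were higher in knockout than in wildtype CD4 cells. JUN is the main activating partner and JUNB a weaker one that supports effector and regulatory T cell programs. Junb read 13953 in knockout CD4 cells against 8763 in wildtype CD4 cells, and 8200 in knockout CD8 cells against 6710 in wildtype CD8 cells. The knockout array was higher in each subset, by 1.59-fold and 1.22-fold, though knockout CD8 cells lay below wildtype CD4 cells. Jun (a) read 8768 in knockout CD4 cells against 5461 in wildtype CD4 cells, and 5226 in knockout CD8 cells against 5353 in wildtype CD8 cells. Jun (b) read 1380 in knockout CD4 cells against 1008 in wildtype CD4 cells, and 1226 in knockout CD8 cells against 905.8 in wildtype CD8 cells, with both knockout arrays above both wildtype arrays. The probe sets of Jun thus both gave a higher value in knockout CD4 cells, 1.61-fold and 1.37-fold, and differed in CD8 cells, with log2 values of -0.03, which turns to 0.18 with median centring, and 0.44. Limma called neither Junb (adjusted p = 0.224) nor Jun (0.514 and 0.339).

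Dusp1 encodes a nuclear phosphatase that switches off MAP kinases. It read 9805 in knockout CD4 cells against 16457 in wildtype CD4 cells, and 5210 in knockout CD8 cells against 8176 in wildtype CD8 cells. It was lower in the knockout cells of each subset, by 1.68-fold in CD4 and 1.57-fold in CD8 cells, while knockout CD4 cells lay above wildtype CD8 cells. Of the members it had the smallest unadjusted p for the genotype label, and it was not called (log2 -0.70 ± 0.14 SE, adjusted p = 0.071 by limma). Its adjusted p passed the threshold in 4 of 10 other settings and lay between 0.0179 and 0.851 over all of them. Of 11 member probe sets, 5 had an unadjusted p under 0.05 for the genotype label, against 13.4% of all 15273, and 0 passed after adjustment, against 0.851% of all probe sets that fell and 0.288% that rose. The 5 were both Egr2 probe sets and Dusp1, lower on the knockout label, and Junb and Jun (b), higher on it. They share the same arrays and include both probe sets of Egr2, so they are not 5 separate results.

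**Figure D2:**
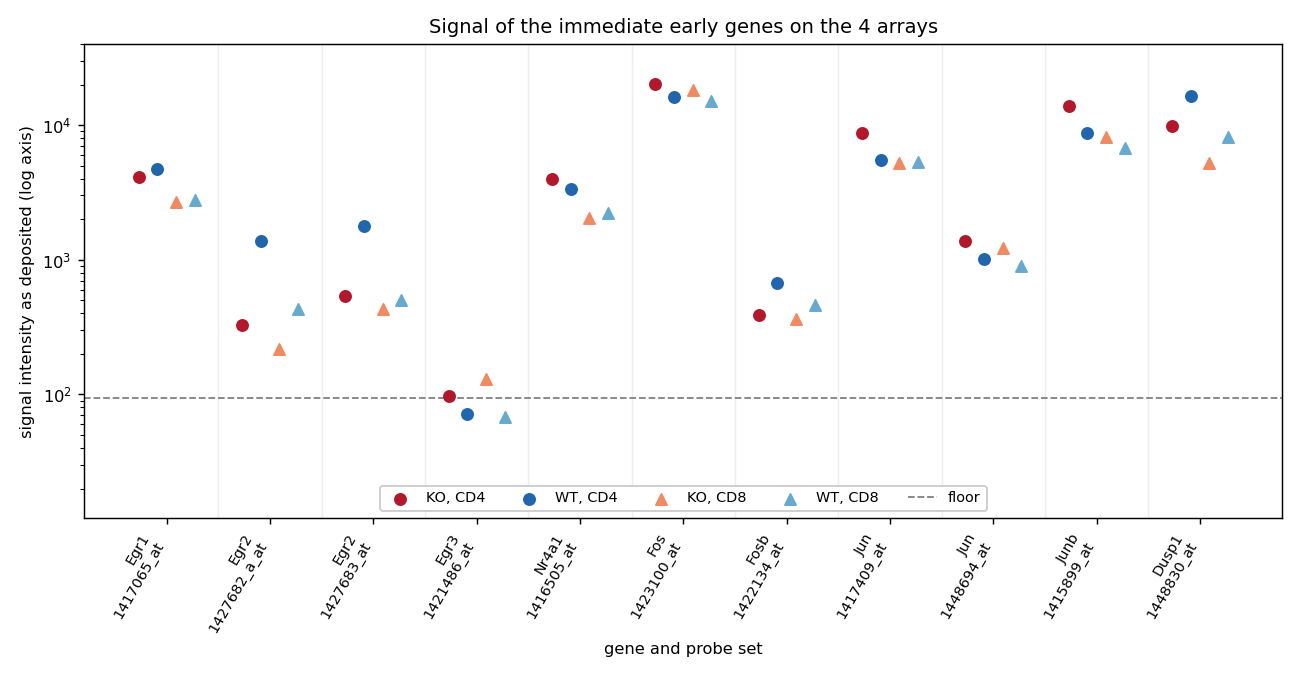
Deposited signal intensity (log axis) of each of the 11 immediate early gene probe sets on the 4 arrays, 1 point per array, knockout in reds and wildtype in blues, CD4 as circles and CD8 as triangles, with the floor of 93.9 dashed. The wildtype CD4 array is highest for both Egr2 probe sets, at 1376 and 1774, and Egr1, Nr4a1 and Dusp1 are lower in CD8 than in CD4 cells for each genotype label.

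**Figure D3:**
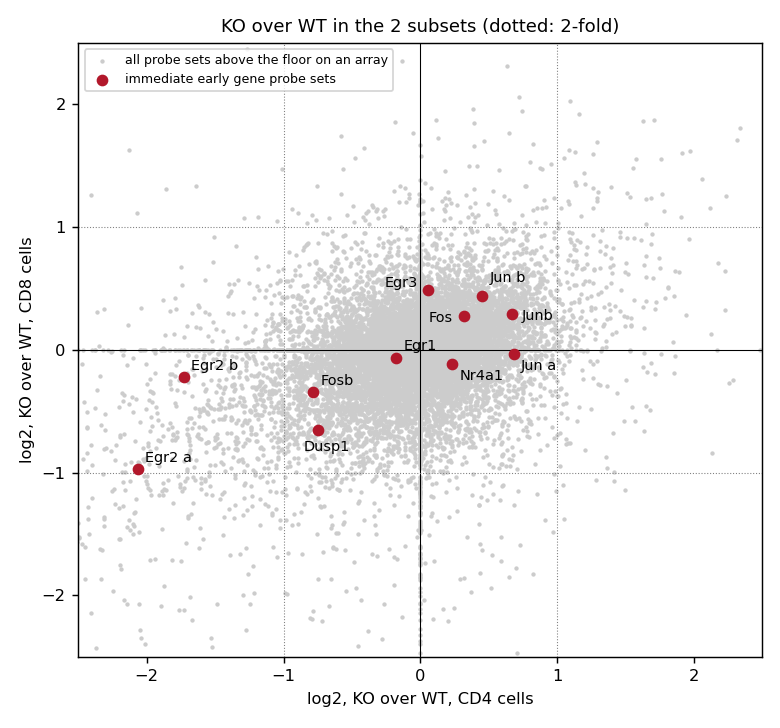
Log2 of knockout over wildtype in CD4 cells (horizontal) and in CD8 cells (vertical) for the 11 immediate early gene probe sets (red) and every probe set over the floor on any array (grey), with 2-fold dotted and values beyond the axes not drawn. Letters a and b mark the probe sets of Egr2 and Jun. The Egr2 points lie left of the 2-fold line and the other members lie within it in both subsets.

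Between the subsets, the members above the floor throughout were lower in CD8 than in CD4 cells on both genotype labels. All 10 member probe sets above the floor on every array were lower in CD8 cells on both labels, at any size, against 27.8% of 12162 such probe sets over the whole array. The exception among the scalings was Jun (a), whose wildtype difference of -0.03 turned to 0.04 with arrays centred on their medians. These 10 probe sets belong to 8 genes and share the same 4 arrays, so they are not 10 separate results. For 6 of 11 (Egr1, Egr2 (b), Nr4a1, Jun (a), Junb and Dusp1) both CD8 arrays lay below both CD4 arrays, against 15.4% of all probe sets, and for 0 above them, against 15.2%. Egr3, with 2 arrays below the floor, was the member outside this count.

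Egr1, Nr4a1 and Dusp1 were lower in CD8 cells on each label, by a similar amount for Egr1 and Dusp1 and more on the knockout label for Nr4a1. Egr1 read 2678 in knockout CD8 against 4142.5 in knockout CD4 cells, and 2800.5 in wildtype CD8 against 4689 in wildtype CD4 cells, 1.55-fold and 1.67-fold lower. Nr4a1 was 1.93-fold lower in CD8 cells on the knockout label and 1.52-fold lower on the wildtype label. Dusp1 was 1.88-fold and 2.01-fold lower in CD8 cells.

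For these 3 genes the fitted difference between genotype labels was smaller than that between subsets. With the genotype label as a covariate, limma gave log2 values of -0.69 ± 0.13 SE for Egr1 (adjusted p = 0.117), -0.77 ± 0.15 SE for Nr4a1 (adjusted p = 0.117) and -0.96 ± 0.14 SE for Dusp1 (adjusted p = 0.0546), so none was called. Over the other settings the adjusted p ran from 0.0277 to 0.972 for Egr1, from 0.0196 to 0.972 for Nr4a1 and from 0.00365 to 0.972 for Dusp1. Of 11 member probe sets, 6 (Egr1, both of Egr2, Nr4a1, Junb and Dusp1) had an unadjusted p under 0.05 for the subset, against 9.23% of all 15273, and 0 were called after adjustment, against 0.216% called higher and 0.105% called lower.

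Egr2 was lower in CD8 cells mainly on the wildtype label, where it was 3.22-fold (a) and 3.51-fold (b) lower. On the knockout label it was 1.51-fold and 1.24-fold lower in CD8 cells. Junb was 1.70-fold lower in CD8 cells on the knockout label and 1.31-fold lower on the wildtype label. Jun was 1.68-fold lower in knockout CD8 cells by probe set a and 1.13-fold by b, and 1.02-fold and 1.11-fold lower in wildtype CD8 cells. Fos was nearly level, 1.09-fold and 1.06-fold lower in CD8 cells, and Fosb was 1.08-fold and 1.46-fold lower. At 2-fold, 3 of 10 member probe sets above the floor were lower in wildtype CD8 cells (both Egr2 probe sets and Dusp1), against 4.66% of 14780, and 0 of 11 in knockout CD8 cells, against 1.41% of 13950. None was 2-fold higher in CD8 cells, against 1.89% on the knockout and 3.13% on the wildtype label. At 1.5-fold, 6 of 11 were lower on the knockout label and 5 of 10 on the wildtype label, against 5.98% and 11.2%, and 0 were higher on either, against 6.82% and 9.26%. Egr1, Nr4a1, Dusp1 and Egr2 (a) were 1.5-fold lower on both labels, 4 of 11 against 1.87%. The wildtype CD8 array was also the one with the high dendritic and MHC class II signal given above.

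The other immediate early genes did not all stand in this order. Of their 28 above the floor, 1 was 2-fold higher in CD8 cells and 0 lower on the knockout label, against 1.94% higher and 1.27% lower over all 8629 genes. On the wildtype label 4 were 2-fold higher and 2 lower, against 3.13% and 5.02%. The list medians were -0.18 on the knockout and -0.14 on the wildtype label. Ier3, a gene of the stress and survival response, was 5.01-fold and 3.25-fold higher in CD8 cells. Myc and Tnfaip3 were 2.33-fold and 2.38-fold higher on the wildtype label. The 2 that were lower there were Plk3, at 2.68-fold, and Trib1, at least 2.40-fold.

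The EGR corepressor genes stood in opposite order between the subsets. Nab1 was higher in CD8 cells on both labels, with log2 values of 0.19 and 0.22. Nab2 read 1001 in knockout CD8 against 1672 in knockout CD4 cells, and 896.3 in wildtype CD8 against 1778 in wildtype CD4 cells, with log2 values of -0.74 and -0.99 (adjusted p = 0.129). Cd5, a brake on antigen receptor signalling whose level is known to follow receptor signal strength, was 1.96-fold lower in CD8 cells on the knockout label and 1.63-fold lower on the wildtype label (adjusted p = 0.0816).

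**Figure D4:**
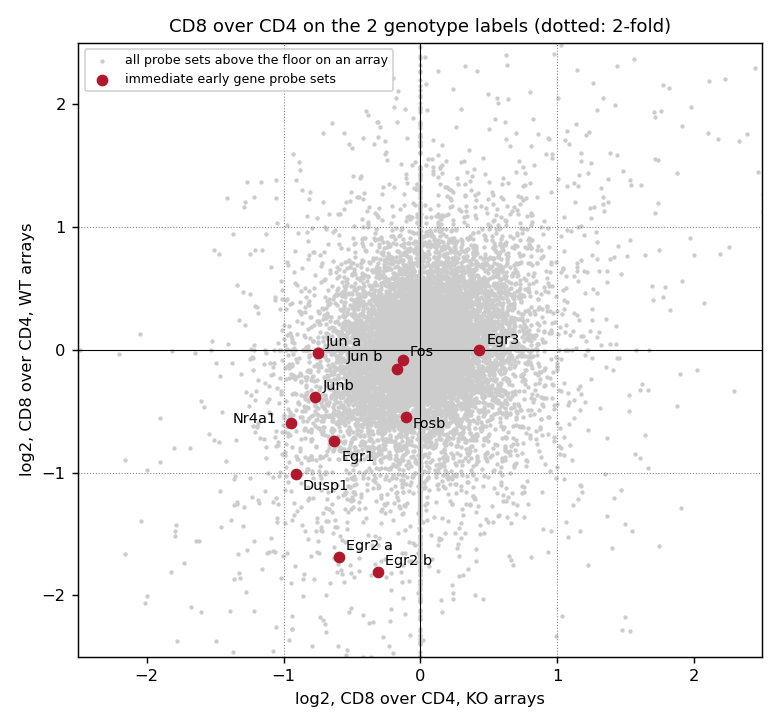
Log2 of CD8 over CD4 on the knockout arrays (horizontal) and on the wildtype arrays (vertical) for the 11 immediate early gene probe sets (red) and every probe set over the floor on any array (grey), with 2-fold dotted and values beyond the axes not drawn. All members but Egr3, which is at the floor on both wildtype arrays, lie left of 0 and below 0.

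Within the set, the patterns over the 4 arrays differed from gene to gene. Likeness was measured as the Euclidean distance between log2 values centred on each gene's own mean, with 1 probe set a gene, over 4 arrays, against the 6881 other genes above the floor on all of them. The genes closest to Egr1 were Gnb4, Lrrfip2, Adk, Camk4 and Pcyt1a, at distances of 0.0563 to 0.101. Nr4a1 was the closest member to Egr1, at 0.307 and rank 143 of 6881. Jun and Junb were 0.297 apart, with Junb at rank 107 from Jun and Jun at rank 48 from Junb. Egr2 and Fos were the members furthest apart after Egr2 and Jun (1.84) and Egr2 and Junb (1.80), at 1.77. With 4 values a gene, such distances are a description only.

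Other immediate early genes were mostly near level between the genotype labels too. Of 32 sought, 31 had a probe set and 28 were above the floor on an array, with median log2 differences of -0.06 in CD4 and -0.12 in CD8 cells, where the median of all 8629 genes was 0 in both. At least 2-fold lower in the cells labelled knockout were 2 in CD4 and 3 in CD8 cells, and 0 were 2-fold higher in either, against 7.3% lower and 1.95% higher in CD4 and 4.02% and 1.14% in CD8 cells over all genes. Ier2, Zfp36 and Btg2 read 9525, 7478 and 10482 in knockout CD4 cells against 7257, 5419 and 8779 in wildtype CD4 cells, and 7964, 5177 and 6971 in knockout CD8 cells against 7693, 4703 and 8251 in wildtype CD8 cells. These 3 were named after their values were seen, for their wide use as markers of this class.

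Rgs1 was the one gene of this list that passed limma over all probe sets. It encodes a GTPase-activating protein that dampens chemokine receptor signals. It fell to 952.2 in knockout CD4 cells, against 3516 in wildtype CD4 cells, and to 835 in knockout CD8 cells, against 1895 in wildtype CD8 cells (log2 -1.53, adjusted p = 0.0254). Ier3 read 102.8 in knockout CD4 against 189.8 in wildtype CD4 cells and 515.4 in knockout CD8 against 617.7 in wildtype CD8 cells. Klf10, a TGF-beta-induced repressor gene, had log2 values of -0.56 and -0.38. Atf3 was above the floor on the wildtype CD8 array alone, at 285, and Trib1 on the wildtype CD4 array alone, at 225.

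Dusp6 and Jdp2, regulators of MAP kinase and AP-1 signalling, were called lower. Dusp6, which encodes the phosphatase of ERK in the cytoplasm, fell to 677.9 in knockout CD4 cells, against 2717 in wildtype CD4 cells, and to 772.1 in knockout CD8 cells, against 1622 in wildtype CD8 cells (4.01-fold and 2.10-fold, adjusted p = 0.0435). Jdp2, which encodes a leucine zipper protein that pairs with JUN and represses AP-1 sites, was below the floor in knockout CD4 cells against 445.7 in wildtype CD4 cells, at least 4.75-fold lower. In CD8 cells Jdp2 read 98.8 in knockout against 386.2 in wildtype cells, 3.91-fold lower (adjusted p = 0.0319). Of all 8629 genes, 1.02% fell and 0.243% rose by limma.

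Of 14 genes of the DUSP phosphatase family sought, 12 had a probe set and 11 were over the floor. Of these 11, 2 showed a 2-fold deficit in knockout CD4 cells (Dusp6 and Dusp14), against 7.3% of all genes. In knockout CD8 cells 1 did (Dusp6), against 4.02%. In CD4 and CD8 cells 0 were 2-fold higher, against 1.95% and 1.14%. Dusp2, the phosphatase of activated lymphocytes, read 8315 in knockout CD4 against 7379 in wildtype CD4 cells. In CD8 cells Dusp2 stood in the opposite order, at 5305 in knockout against 5979 in wildtype cells. Of 13 AP-1 partners and antagonists above the floor, 2 were 2-fold higher in knockout CD4 cells, Bach2 at 3.11-fold and Maff at 2.5-fold, and 2 were 2-fold lower, Jdp2 and Mafg, against 1.95% higher and 7.3% lower over all genes. Mafg was 3.35-fold lower in CD4 and 1.44-fold higher in CD8 cells of the knockout label. Another Mafg probe set gave a log2 value of -0.25 in CD4 and at least 0.51 in CD8 cells. Of the same list, 3 were 2-fold lower in knockout CD8 cells, Jdp2, Atf3 and Batf3, against 4.02% of all genes, and Batf3 is also a dendritic cell gene.

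The kinases and factors that drive the class were mostly less than 1.5-fold apart. Of 27 sought, 18 had a probe set, all above the floor. Over these 18 genes of the serum response factor, ternary complex and MAP kinase route, the median was 0.04 (CD4) and -0.16 (CD8), and 1 was 2-fold lower in knockout CD4 cells (Elk3, a ternary complex factor that can repress, at 2.20-fold), against 7.3% of all genes. Other probe sets of Elk3 gave log2 values of -0.63 and -0.89 in CD4 cells. Mapk8, which encodes the JUN kinase JNK1, had the largest mean difference of the list by the probe set used. By it, Mapk8 was 1.89-fold higher in knockout CD4 and 1.67-fold higher in knockout CD8 cells (adjusted p = 0.142 by limma). Neither of its other probe sets was higher in both subsets, with log2 values of 0.65 and -0.12 in CD4 and -0.44 and -0.03 in CD8 cells. Srf itself read 1217 in knockout CD4 against 1194 in wildtype CD4 cells and 871 in knockout CD8 against 1241 in wildtype CD8 cells, 1.43-fold lower. The 12 heat shock genes, which like the immediate early genes come up when cells are handled, lay at a median of 0.16 (CD4) and 0.10 (CD8), with 0 of them 2-fold apart. Of 6 genes of the CD69 and S1PR1 route above the floor, 0 were 2-fold apart in either subset. For both of these short lists, the shares over all 8629 genes were 7.3% lower and 1.95% higher in CD4 cells. In CD8 cells the shares were 4.02% lower and 1.14% higher. S1pr1, the egress receptor that CD69 protein pulls from the cell surface, and Klf2, its activator, were 1.80-fold and 1.73-fold higher in knockout CD4 cells. In CD8 cells S1pr1 was 1.10-fold higher and Klf2 1.09-fold lower in the knockout label.

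Genes that T cells turn on later in activation were mostly lower in knockout CD4 cells. Of 18 over the floor, 12 showed a 2-fold or greater deficit in knockout CD4 cells, where the background was 7.3%, and 4 in knockout CD8 cells, where it was 4.02%. Their medians were -1.97 and -0.46, and 0 were 2-fold higher in either subset. Ctla4, an inhibitory receptor gene, read 585.4 in knockout CD4 against 4490.5 in wildtype CD4 cells, and Pdcd1, which encodes PD-1, read 174.5 in knockout CD4 against 1966 in wildtype CD4 cells. Il2ra, the IL-2 receptor alpha chain gene, lay below the floor in knockout CD4 cells against 640.4 in wildtype CD4 cells. Nfatc1, whose product acts upstream of Egr2, was 3.94-fold lower in knockout CD4 and 1.77-fold lower in knockout CD8 cells (adjusted p = 0.0633).

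Of this list limma called 2, both lower. Ifng fell, with 24.6 in knockout CD4 cells, below the floor, against 1995 in wildtype CD4 cells, at least 21.2-fold lower, and 123.1 in knockout CD8 against 868.4 in wildtype CD8 cells (adjusted p = 0.0166). Cd5 was 1.62-fold lower in CD4 cells and 1.94-fold lower in CD8 cells of the knockout label (adjusted p = 0.0484). Rgs1, Jdp2, Dusp6, Ifng and Cd5 were no longer called after median centring or quantile normalization, and their adjusted p-values reached 0.851 with no filter on low signals. Their differences stayed below 0 in all settings run, with log2 values of -1.53 to -1.27 for Rgs1, -1.54 to -1.27 for Dusp6, -2.26 to -1.92 for Jdp2, -4.58 to -1.55 for Ifng and -0.88 to -0.56 for Cd5. Each of these differences goes along with the 41.5-fold and 22.7-fold lower Cd44 of the knockout arrays, and its part in them cannot be told apart from the genotype label.

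**Figure D5:**
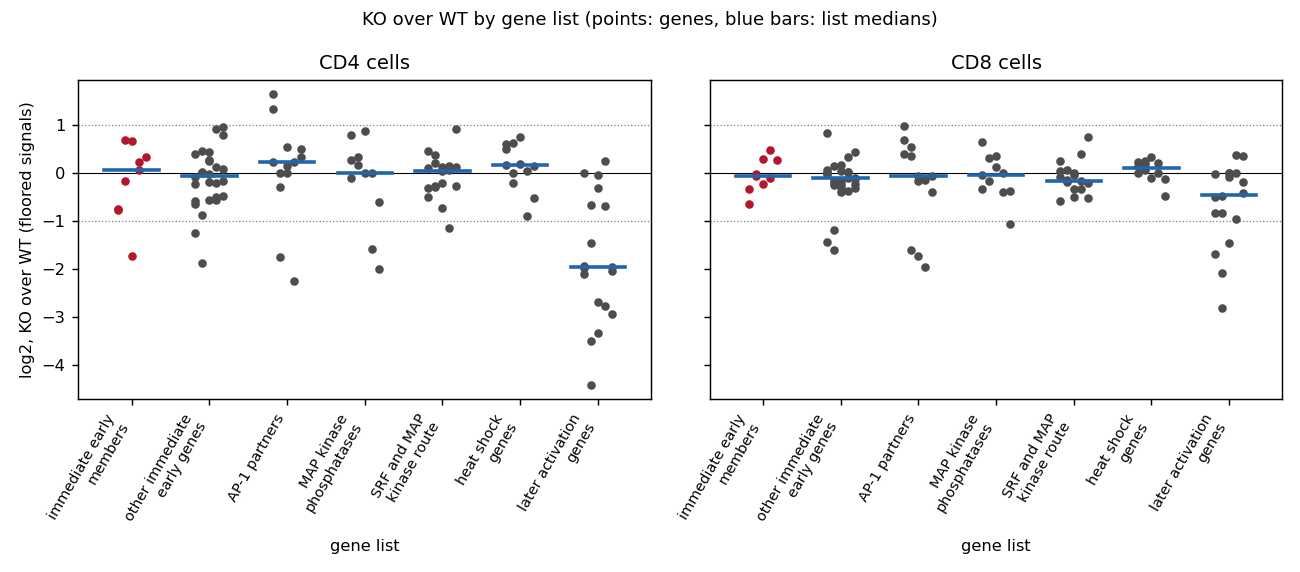
Log2 of knockout over wildtype in CD4 cells (left) and CD8 cells (right) for genes over the floor on any array, 1 point per gene with 1 probe set each, by gene list, with list medians as blue bars and 2-fold dotted. The later activation genes centre on -1.97 (CD4) and -0.46 (CD8), while the medians of the other 6 lists drawn lie between -0.16 and 0.22. The marker lists of other cell types are not drawn.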

How the data were processed

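The 4 samples are Affymetrix MOE430A_2.0 arrays, 1 for each group. TRIzol extraction preceded biotin labelling, per the labels' protocols. GCOS 1.4 and MAS5 stand in the submitters' processing notes; other steps were not stated. The authors deposited 1 signal intensity, on a linear scale, for each probe set and array. Their trimmed means on the 4 arrays lay between 980 and 983, so they appear scaled to a common level. Precision is limited by the number of arrays.

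Of 22690 probe sets, 64 controls were left out. The supplied platform annotation lists 1 symbol for 20380 of the rest, several for 691 (not used for genes) and none for 1555, and 20351 with 1 symbol matched RefSeq (GRCm38.p6). Signals were floored at the 40th percentile (93.9) before log2, and a fold is a lower bound where 1 of its arrays was floored. Differences are knockout minus wildtype, or CD8 minus CD4. Limma 3.58.1 (R 4.3.3; lmFit, eBayes with trend, prior degrees of freedom 6.10) was fitted with subset and genotype label as terms on 15273 probe sets over the floor on any array; p-values were adjusted by Benjamini-Hochberg (threshold 0.05). The fit was tested on simulated data. Gene lists used 1 probe set a gene, the one with the highest mean.

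Members, lists and tests were chosen with earlier results of these data known. All members are named. Those of the other 13 lists that bear on a result name up to 6 genes with the largest mean difference over the subsets. They also name any gene called by limma. Further genes (Ier2, Zfp36, Btg2, Myc, Tnfaip3, Plk3, Dusp2, Srf and some markers) were chosen after their values were seen. The pattern search planned for Cd69 was not made. Tables and figures were made in Python 3.11.15 with pandas 2.3.3, numpy 2.4.6 and matplotlib 3.10.9. Alternatives were other floors, a pseudocount of 16, other scalings, 1.5-fold, other filters, no trend and 1 probe set a gene.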

Additional observations from a re-analysis of the deposited data

Results flagged for a closer look

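For 2 probe sets the knockout and wildtype arrays stood in opposite order in the 2 subsets. For Nr4a1 the log2 difference was -0.11 in CD8 and 0.23 in CD4 cells, which differ by -0.35. For probe set a of Jun it was -0.03 in CD8 and 0.68 in CD4 cells, which differ by -0.72. Each subset has 1 array a label, so neither difference was tested. With arrays centred on their medians both CD8 values turned positive, to 0.10 for Nr4a1 and 0.18 for Jun.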

How the results depend on the processing

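No paired analysis was possible because each group has 1 array and the labels carry no replicate numbers. Centring arrays on their medians moved the median log2 of the 12162 probe sets measured throughout to 0.32 in CD4 and 0.21 in CD8 cells (knockout over wildtype). Of the log2 differences of single member probe sets, 262 of the values under the alternatives stayed within 1.5-fold of the reported ones and 2 moved further, both of Egr2 (a) with a floor at the 60th percentile, where they became 0. At 1.5-fold in place of 2-fold, the member probe sets that were lower in knockout cells numbered 4 in CD4 and 2 in CD8 cells, 2 were higher in CD4 cells, and 6 and 5 were lower in CD8 than in CD4 cells on the knockout and wildtype labels. Without probe sets whose names end in _s_at, _x_at or _a_at, 1 was 2-fold lower in knockout CD4 cells.

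For the genotype label, limma called 174 probe sets in all as reported, 453 when every array had to exceed the floor, 589 and 89 with a floor at the 25th and 60th percentile, 584 without a floor, 689 with the pseudocount, 30 with median centring, 25 after quantile normalization, 16 without the trend, 56 with 1 probe set a gene and 0 with no filter (1306 at an unadjusted p under 0.05). Of the members it called 2, Egr2 (a) and Dusp1, when every array had to exceed the floor, with a floor at the 25th percentile, without a floor and with the pseudocount, and 0 otherwise. For the subset these totals were 49 as reported, then 229, 267, 32, 248, 315, 15, 12, 4, 22 and 0 in the same order (1145 at an unadjusted p under 0.05 with no filter). Of the members, 3 (Egr1, Nr4a1 and Dusp1) were called for the subset in the same 4 settings and 1 (Dusp1) with a floor at the 60th percentile. Rgs1, Jdp2, Dusp6, Ifng and Cd5 lost their calls with median centring, after quantile normalization, without the trend and with no filter; Dusp6, Ifng and Cd5 also lost theirs with a floor at the 60th percentile, and Dusp6 and Cd5 with 1 probe set a gene. The cause was not tested.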
